A study of Mus musculus with 8 samples.

Results

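Spliceosome and splicing factor genes were taken from the deposited gene table as the rows whose symbol begins with Snrp, Lsm and a digit, Sf3a or Sf3b and a digit, Prpf and a digit, Srsf and a digit, or U2af1 or U2af2. The rule found 63 rows, with 62 different symbols, of 12964 rows in all. Among them 26 rows belonged to the Snrp and Lsm families, most of which encode small subunits of ribonucleoprotein particles, and 37 rows encoded SF3, PRPF, SR and U2AF proteins, called the other splicing factors here. The median coding length was 393 nt in the Snrp and Lsm rows and 1455 nt in the other splicing factors, against 1419 nt over all genes tested. The division follows the names and is not one of length: Sf3b5 and Sf3b6, with coding lengths of 258 and 375 nt, stand among the other splicing factors.

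The cells were PyMT cells, labelled wild type, from a primary mammary tumour, grown in medium with insulin, EGF and 2% serum. PyMT is the polyoma virus middle T oncogene, which drives mammary tumours in mice. Cells were sorted by flow cytometry into those with the surface protein CD90 (CD90pos) and those without it (CD90neg), and each population was untreated (control) or was cultured for 24 h with 10 IU per ml of the cytokine interferon gamma (IFNg). Each of the 4 groups held 2 libraries, a letter A and a letter B library, whose meaning the labels do not give, and nothing in the labels says that they came from separate animals or cultures, so a p-value reflects no more than the spread among these libraries, which may be technical.

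The spliceosome removes introns from precursor mRNA. Its U1, U2, U4 and U5 particles each hold a small nuclear RNA in a ring of Sm proteins (SmB, D1, D2, D3, E, F and G), and the U6 particle carries a related ring of LSm proteins, which in a cytoplasmic form with LSM1 takes part in mRNA decay. U2AF and the SF3A and SF3B complexes recognise the 3′ splice site and branch point, PRPF proteins build and remodel the assembled spliceosome, and SR proteins bind exons and guide the choice of splice sites.

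The libraries held between 31243646 and 40899909 reads, recovered from the normalized values. All 63 rows passed the filter on low values, and the fewest reads of any of them in a library was 16. Thy1, which encodes CD90, was at 283.5 and 1494.8 normalized reads in CD90pos control A and B and at 2195.1 and 3936.4 in CD90pos IFNg. In CD90neg libraries it lay between 16.6 and 65.5, so the populations followed the sort. The CD90pos libraries themselves differed in this marker, between letters and with IFNg. Summed levels of 7 mammary epithelial keratin and adhesion genes lay between 210124 and 833969 normalized reads. The 5 of 10 leukocyte markers present in the table summed to between 178 and 2051, 6 of 7 fibroblast markers to between 366 and 2251, and 2 of 6 endothelial markers to between 1273 and 4469. Mitochondrially encoded genes took a share of 2.31% in the letter A and 0.670% in the letter B library of untreated CD90pos cells, which were the 2 extremes of all 8. Exons of Prpf39, Sf3a2, Sf3b3, Snrpa, Snrpd3, Srsf2, Srsf4 and both U2af1l4 rows overlap a listed gene on the opposite strand, so their counts are uncertain if strand was not used in counting. In such bulk libraries fewer cells of a type and less RNA per cell cannot be told apart.

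The promoters of 4 genes that fell most with IFNg in CD90pos cells, and of Snrpf, an Sm gene that did not pass the test, are shown to let their sequences be compared. Each is the RefSeq window (GRCm38.p6) from 250 bases before to 50 after the annotated start, read 5′ to 3′ along the gene, with capitals marking the letters CCGGAA, the core bound by ETS family factors, on either strand.
Lsm5 (chr6:56704650-56704949, minus strand): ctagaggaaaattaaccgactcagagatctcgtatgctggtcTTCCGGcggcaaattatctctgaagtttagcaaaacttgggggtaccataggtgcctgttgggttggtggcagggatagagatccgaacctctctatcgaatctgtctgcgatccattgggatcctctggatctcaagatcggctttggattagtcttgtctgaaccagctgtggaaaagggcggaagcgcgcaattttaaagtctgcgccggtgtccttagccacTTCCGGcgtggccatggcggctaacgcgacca
Snrpg (chr6:86371290-86371589, plus strand): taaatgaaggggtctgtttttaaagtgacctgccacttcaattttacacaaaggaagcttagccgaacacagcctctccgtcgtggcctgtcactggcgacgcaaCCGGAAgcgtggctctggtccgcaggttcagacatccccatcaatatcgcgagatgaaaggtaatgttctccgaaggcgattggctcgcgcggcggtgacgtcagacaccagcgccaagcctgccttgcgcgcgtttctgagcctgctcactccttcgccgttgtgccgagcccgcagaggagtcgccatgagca
Snrpe (chr1:133610231-133610530, minus strand): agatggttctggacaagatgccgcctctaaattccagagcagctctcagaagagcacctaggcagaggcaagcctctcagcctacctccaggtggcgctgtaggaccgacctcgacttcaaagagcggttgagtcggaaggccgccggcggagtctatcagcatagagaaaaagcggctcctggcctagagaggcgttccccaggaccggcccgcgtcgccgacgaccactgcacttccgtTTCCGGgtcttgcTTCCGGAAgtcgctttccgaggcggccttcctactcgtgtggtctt
Sf3b6 (chr12:4817358-4817657, plus strand): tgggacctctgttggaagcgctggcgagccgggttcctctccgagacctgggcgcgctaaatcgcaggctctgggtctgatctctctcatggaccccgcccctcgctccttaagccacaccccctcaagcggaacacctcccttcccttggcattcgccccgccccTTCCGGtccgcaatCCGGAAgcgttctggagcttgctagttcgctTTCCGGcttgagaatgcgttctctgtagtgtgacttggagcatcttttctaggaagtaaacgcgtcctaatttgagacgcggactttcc
Snrpf (chr10:93589609-93589908, minus strand): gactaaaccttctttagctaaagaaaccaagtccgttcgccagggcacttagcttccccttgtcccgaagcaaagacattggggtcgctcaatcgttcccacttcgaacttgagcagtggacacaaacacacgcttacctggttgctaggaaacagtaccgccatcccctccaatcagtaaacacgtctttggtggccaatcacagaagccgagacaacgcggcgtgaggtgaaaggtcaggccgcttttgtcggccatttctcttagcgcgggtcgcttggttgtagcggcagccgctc

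A window was found for 51 of the 62 symbols, with 65 windows in all. CCGGAA, searched on both strands, was in 29 of these 65 windows, or 44.6%, against 14.9% of all 32851 windows in the RefSeq table. That background was not limited to the genes tested here, so it is not matched to the splicing genes in expression. The CCAAT letters, on both strands, were in 26 of 65, or 40.0%, against 37.4%. CCGGAA was in the windows of Lsm5, Snrpg, Snrpe and Sf3b6. It was not found for Snrpd1 and Snrpd2, also called lower with IFNg in CD90pos cells without the block, whether for lack of the letters or of a window. CCGGAA was also in the windows of Sf3a2, Sf3b2, Sf3b3 and Srsf4, which had positive fold changes in that comparison. Snrpd3, Prpf19 and Srsf5, which were not called, had it too. This describes these 300 bases alone. In Snrpe, 2 of the sites lie on opposite strands and overlap.

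Most Snrp and Lsm genes were highest in untreated CD90pos cells, and the other 6 libraries lay close together. As deviations from the mean of each gene, the median of the 26 Snrp and Lsm rows was 0.19 (letter A) and 0.42 (letter B) in the CD90pos control libraries on the log2 scale, and between -0.25 and 0.01 in the other 6 libraries. The median of the 37 other splicing factors was -0.09 and -0.10 in the CD90pos control libraries and between -0.04 and 0.10 elsewhere. The difference between both medians was 0.28 and 0.52 in CD90pos control A and B, and between -0.21 and -0.05 in the other 6 libraries. The highest library was a CD90pos control library for 19 of the 26 Snrp and Lsm rows. For the 37 other factors the lowest was a CD90pos control library in 24. Yet their highest library was CD90pos control A for 13 rows and CD90pos control B for 5. These counts were not made over all genes.

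**Figure D1:**
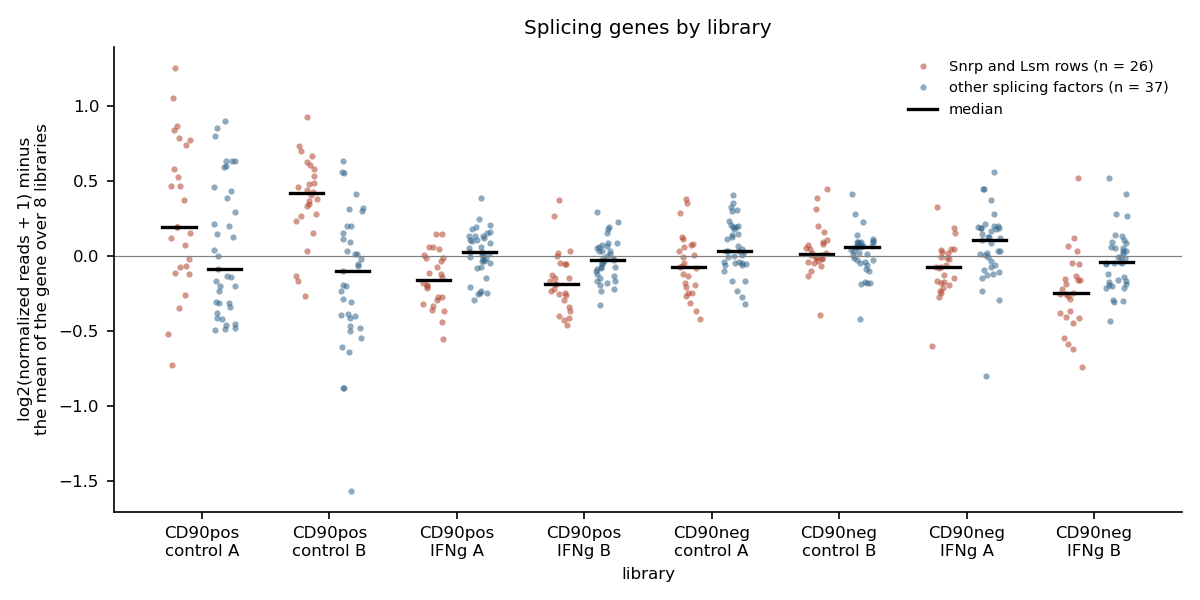
Each point is 1 splicing gene in 1 library, as log2(normalized reads + 1) minus the mean of that gene over the 8 libraries; red points are Snrp and Lsm rows, blue points the other splicing factors, and bars are medians. The red medians stand above 0 at 0.19 and 0.42 in the CD90pos control libraries and at most 0.01 in the other 6.

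Both CD90pos control libraries lay above all 6 others for 21 of the 63 rows and below all 6 for 11, while 15.5% of all genes tested lay above and 12.4% below; this count, with no test, was chosen after the values were seen. Of the 21 rows above, 15 were Snrp and Lsm rows, among them 6 of 8 LSm ring genes (Lsm1, Lsm3, Lsm5, Lsm6, Lsm7 and Lsm8) and 5 of 8 Sm core genes (Snrpd1, Snrpd2, Snrpd3, Snrpe and Snrpg). The other 6 were Prpf38a, Sf3b5, Sf3b6, Srsf3, Srsf7 and Srsf12. Of the 11 rows below, 10 were other splicing factors, namely Prpf4, Prpf6, Prpf8, Prpf40b, Sf3a1, Sf3a2, Sf3b2, Sf3b3, Srsf4 and U2af2, and the other was Snrpa.

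The first comparison asked what IFNg changed in CD90pos cells. Of 63 rows, 6 were called lower and 0 higher by limma at an adjusted p under 0.05 over all 12962 genes tested, and the 6 were Lsm5, Snrpg, Snrpe, Sf3b6, Snrpd1 and Snrpd2. Of the 63, 26 had an unadjusted p under 0.05. On the recovered reads edgeR called 0 rows higher and 5 lower, and 419 of all genes. DESeq2 called 2 rows higher and 16 lower, and 2042 of all genes. In the limma fit, 2.11% of all genes were called higher and 2.11% lower. With the letter as a block, 5 rows were called higher and 18 lower, against 14.0% and 13.6% of all genes, and the 18 were 13 Snrp and Lsm rows together with Sf3b6, Sf3b5, Srsf3, Srsf7 and Prpf38a. The median log2 fold change was -0.49 over the 26 Snrp and Lsm rows (-0.36 within letter A and -0.61 within letter B), 0.11 over the 37 other factors and 0.01 over all genes. Most of the unblocked calls were lost without any 1 of the 8 libraries, which leaves 1 library in a group. With the block most calls were lost without CD90pos IFNg A or B. Calls over all genes were not counted in these fits, so losses in the splicing genes cannot be told from losses across all genes. In them the median of the Snrp and Lsm rows minus that of the other factors lay between -0.676 and -0.455.

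Among the Sm core genes, Snrpe and Snrpg fell most. Snrpe, which encodes SmE (chromosome 1, 133603871 to 133610291, minus strand), was at 4963 and 4433 normalized reads in CD90pos control A and B, 2115 and 2061 in CD90pos IFNg, 2112 and 2681 in CD90neg control, and 2294 and 2454 in CD90neg IFNg. Both CD90pos control libraries stood well above the other 6, whose groups overlapped or lay close. It fell by 1.17 with IFNg in CD90pos cells (log2, SE 0.16, adjusted p = 0.0313). Snrpg, which encodes SmG (chromosome 6, 86371304 to 86379328, plus strand), was at 3226 and 2399 in CD90pos control, 1231 and 1158 in CD90pos IFNg, 1292 and 1631 in CD90neg control, and 1420 and 1037 in CD90neg IFNg. The CD90pos control libraries were again the highest, with letter A above letter B. The change with IFNg was -1.39 within letter A and -1.05 within letter B, and the fitted log2 fold change was -1.22 (SE 0.23, adjusted p = 0.0479), a call that edgeR made on the recovered reads with the block and not without it.

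The D1 and D2 subunits of the same ring moved together. Snrpd1 was at 5519 and 5618 normalized reads in CD90pos control A and B, 3182 and 3091 in CD90pos IFNg, 3115 and 3661 in CD90neg control, and 3232 and 3071 in CD90neg IFNg. Snrpd2 was at 3485 and 3614, 1975 and 2161, 2210 and 2582, and 2062 and 1878 in the same order of groups. For both genes the letters nearly coincided in CD90pos control cells and no other library reached them. The log2 fold changes with IFNg were -0.83 for Snrpd1 (SE 0.13, adjusted p = 0.0344) and -0.78 for Snrpd2 (SE 0.14, adjusted p = 0.0409). Snrpd3 and Snrpb, for SmD3 and SmB, had log2 fold changes of -0.35 and -0.25 and were not called in either fit.

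Snrpf, which encodes SmF, the partner of SmE and SmG in the ring, did not share this pattern. It was at 996 and 2306 normalized reads in CD90pos control A and B, 1632 and 1506 in CD90pos IFNg, 1653 and 2157 in CD90neg control, and 1695 and 1597 in CD90neg IFNg. The CD90pos control libraries were the lowest and the highest of the 8, so the change with IFNg was 0.71 within letter A and -0.61 within letter B, and the fit gave 0.05 (adjusted p = 0.967, SE 0.38). Snrpn, which encodes SmN, a protein related to SmB and known mainly from brain, differed more between letters than between groups and is described with them. Per kilobase of the longest transcript, Snrpb, Snrpd1 and Snrpe averaged 5377, 4442 and 4319 normalized reads over the 8 libraries, Snrpg, Snrpd2 and Snrpd3 averaged 1587, 1758 and 1393, and Snrpn averaged 257.

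Snrpert, which GENCODE vM21 annotates as a processed pseudogene (chromosome 2, 131322088 to 131322366, minus strand), followed Snrpe. Over 225 aligned bases of its 279 it was 99.6% identical to the longest Snrpe transcript, so reads of both cannot be told apart with certainty and its values are uncertain. It was at 584 and 520 normalized reads in CD90pos control A and B and between 212 and 316 in the other 6 libraries. It was called with the block, at a log2 fold change of -0.96 with IFNg in CD90pos cells (adjusted p = 0.0219), and not without it (adjusted p = 0.0778).

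**Figure D2:**
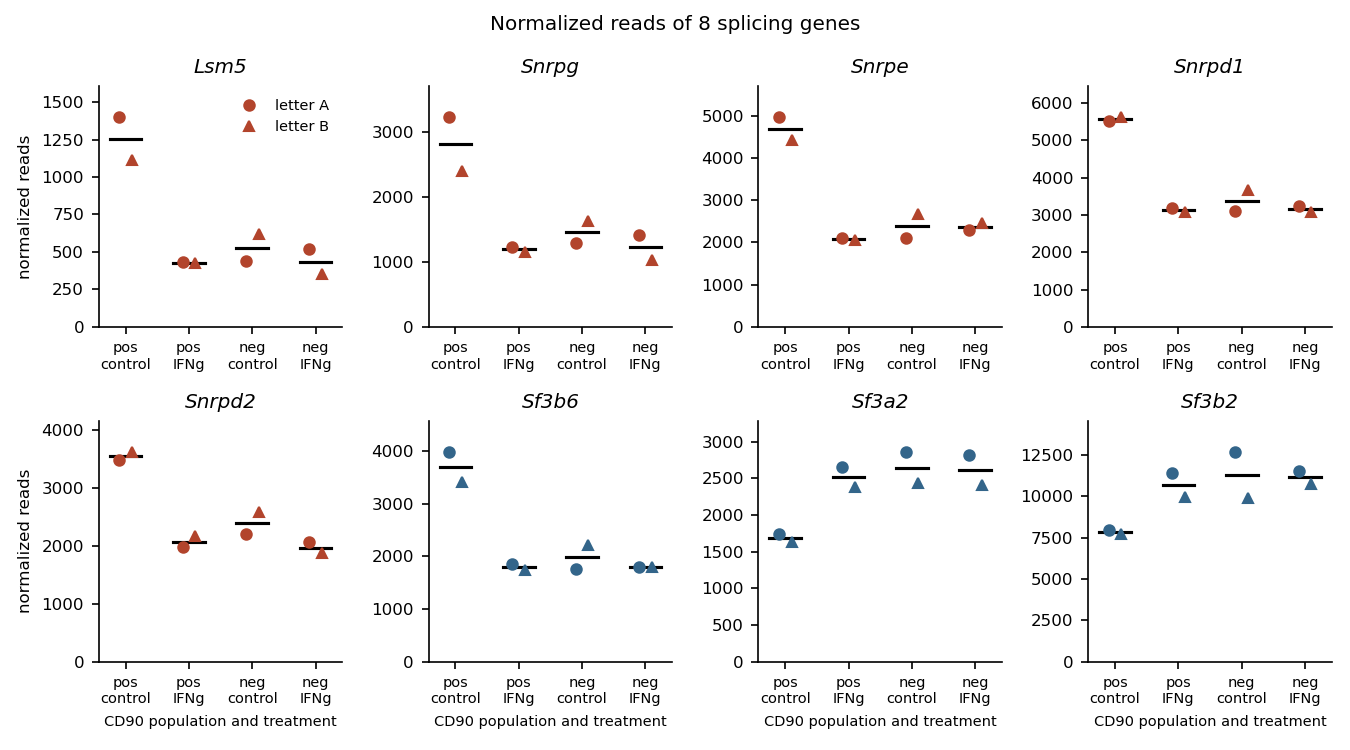
Normalized reads of 8 splicing genes (vertical axis, from 0) in CD90pos and CD90neg cells, control and IFNg; circles are letter A, triangles letter B and bars the mean of 2 libraries. In the 6 genes lowered by IFNg, both CD90pos control points lie above the other 6 libraries, and in Sf3a2 and Sf3b2 they lie below.

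All 8 genes of the LSm rings had negative fold changes with IFNg in CD90pos cells, with a median of -0.65. Lsm5, shared by the nuclear and the cytoplasmic ring (chromosome 6, 56701063 to 56704710, minus strand), had the largest change of all 63 rows. It was at 1398 and 1114 normalized reads in CD90pos control A and B, 432 and 426 in CD90pos IFNg, 438 and 619 in CD90neg control, and 517 and 351 in CD90neg IFNg. Both CD90pos control libraries were at least 1.80 times the highest other library, and with IFNg Lsm5 fell by 1.54 on the log2 scale (adjusted p = 0.0421, SE 0.28).

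The blocked fit called 4 more ring genes lower. Lsm1, which marks the cytoplasmic ring, was at 1982 and 1560 normalized reads in CD90pos control and between 788 and 1166 in the other 6 libraries (log2 fold change -0.88, blocked adjusted p = 0.0111). Lsm7 and Lsm3, which belong to both rings, had log2 fold changes of -0.89 and -0.82, with blocked adjusted p of 0.00769 and 0.0183, and Lsm6, also in both rings, had -0.47 (0.0351). In the unblocked fit their adjusted p lay between 0.0744 and 0.113. Lsm8, which marks the nuclear ring on U6, had a log2 fold change of -0.26, and Lsm2 and Lsm4 had -0.17 and -0.22. These 3 were not called in either fit.

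With IFNg in CD90pos cells limma called none of the other 5 genes named LSm in either fit. Lsm10, which with Lsm11 belongs to the U7 particle for histone mRNA processing, was at 639 and 645 normalized reads in CD90pos control and between 353 and 482 in the other 6 libraries. Its log2 fold change with IFNg was -0.52, with an adjusted p of 0.166 without and 0.0540 with the block, and DESeq2 with the block called it lower. Lsm11 had a log2 fold change of 0.16. Lsm12, Lsm14a and Lsm14b, of which Lsm14a and Lsm14b encode cytoplasmic proteins of mRNA control, had fold changes between 0.00 and 0.13.

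Of the 4 proteins particular to U1 and U2, those of Snrpb2 and Snrpa1 (U2) and of Snrpc (U1) belong to genes that were lower with the block. Snrpb2 was at 3807 and 2956 normalized reads in CD90pos control A and B, 1845 and 1727 in CD90pos IFNg, 2322 and 2031 in CD90neg control, and 2195 and 1634 in CD90neg IFNg. It had the highest levels in both CD90pos control libraries and a log2 fold change of -0.91 (blocked adjusted p = 0.00474; 0.0635 without the block). Snrpc and Snrpa1 had -0.55 and -0.53 (blocked adjusted p = 0.0350 and 0.0166). Snrpa, which encodes the A protein of U1, was at 2177 and 2459 in CD90pos control and between 2661 and 3366 elsewhere, the opposite order, and its log2 fold change of 0.30 was not called.

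The SF3A and SF3B complexes split by subunit. Sf3b6, which encodes p14, the subunit that touches the branch point (chromosome 12, 4817544 to 4827659, plus strand), was at 3977 and 3406 normalized reads in CD90pos control A and B, 1852 and 1750 in CD90pos IFNg, 1761 and 2209 in CD90neg control, and 1793 and 1792 in CD90neg IFNg. As with Snrpe, both CD90pos control libraries were far above the rest, and with IFNg it fell by 1.03 on the log2 scale (adjusted p = 0.0344, SE 0.16). Sf3b5, another small subunit, was at 2298 and 2920 in CD90pos control and between 1687 and 2039 elsewhere, with a log2 fold change of -0.58 that was called with the block (adjusted p = 0.0182).

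Of the 7 larger subunits, 4 were called higher with the block and 0 without it. Sf3a2 was at 1742 and 1640 normalized reads in CD90pos control A and B, 2650 and 2377 in CD90pos IFNg, 2857 and 2434 in CD90neg control, and 2820 and 2405 in CD90neg IFNg. Sf3b2 was at 7975 and 7734, 11450 and 9951, 12676 and 9912, and 11518 and 10784 in that order. For both genes the CD90pos control libraries were the lowest of the 8, and the log2 fold changes with IFNg were 0.57 (blocked adjusted p = 0.0111) and 0.44 (0.0339), neither called without the block (adjusted p = 0.0920 and 0.174). Sf3b3 and Sf3b4 rose by 0.38 and 0.45 with blocked adjusted p of 0.0347 and 0.0344. Sf3a1 had 0.41 (blocked adjusted p = 0.0685) and Sf3a3 0.17, with 0.46 within letter A and -0.12 within letter B, and neither was called. Sf3b1, the scaffold of SF3B and a gene often mutated in blood cancers, stayed between 12008 and 13992 normalized reads in all libraries, with a log2 fold change of -0.10 (adjusted p = 0.701).

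SR protein genes were mixed. Srsf3, which encodes the smallest SR protein, was at 12873 and 10324 normalized reads in CD90pos control and between 6735 and 7984 in the other 6 libraries. Srsf7, its closest relative, was at 8449 and 7560 against 5010 to 6563. Both were above all other libraries, with log2 fold changes of -0.67 and -0.55 and blocked adjusted p of 0.0106 and 0.0321 (0.0641 and 0.117 without the block). Srsf4 was at 1505 and 1278 in CD90pos control, 2012 and 2114 in CD90pos IFNg, 1916 and 1990 in CD90neg control, and 2137 and 2251 in CD90neg IFNg, so that it was lowest in both CD90pos control libraries. It rose by 0.57 with the block (adjusted p = 0.0189; 0.0704 without it). The other 8 SR genes were not called with IFNg in CD90pos cells and lay between -0.40 and 0.16.

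Among the 13 PRPF genes limma called 1 with IFNg in CD90pos cells, in the blocked fit. Prpf38a, which encodes a protein needed to activate the assembled spliceosome, was at 3441 and 2960 normalized reads in CD90pos control and between 1839 and 2077 elsewhere, with a log2 fold change of -0.65 (blocked adjusted p = 0.0113; 0.0540 without the block). Prpf8, the protein at the catalytic centre, was at 11560 and 12314 in CD90pos control and between 14710 and 18253 elsewhere. It was lowest in the CD90pos control libraries, and its log2 fold change of 0.42 was not called by limma (adjusted p = 0.193, and 0.0604 with the block). DESeq2 with the block called Prpf8 and Prpf31, a U4/U6 factor with a log2 fold change of 0.45, higher. The U2AF genes gave no call: U2af2, for the large subunit, had 0.18 and U2af1, for the small one, 0.15. Both U2af1l4 rows lay between 18.0 and 88.7 normalized reads, and vM21 assigns one of them to a transcript that runs through from the other, so their values are uncertain.

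**Figure D3:**
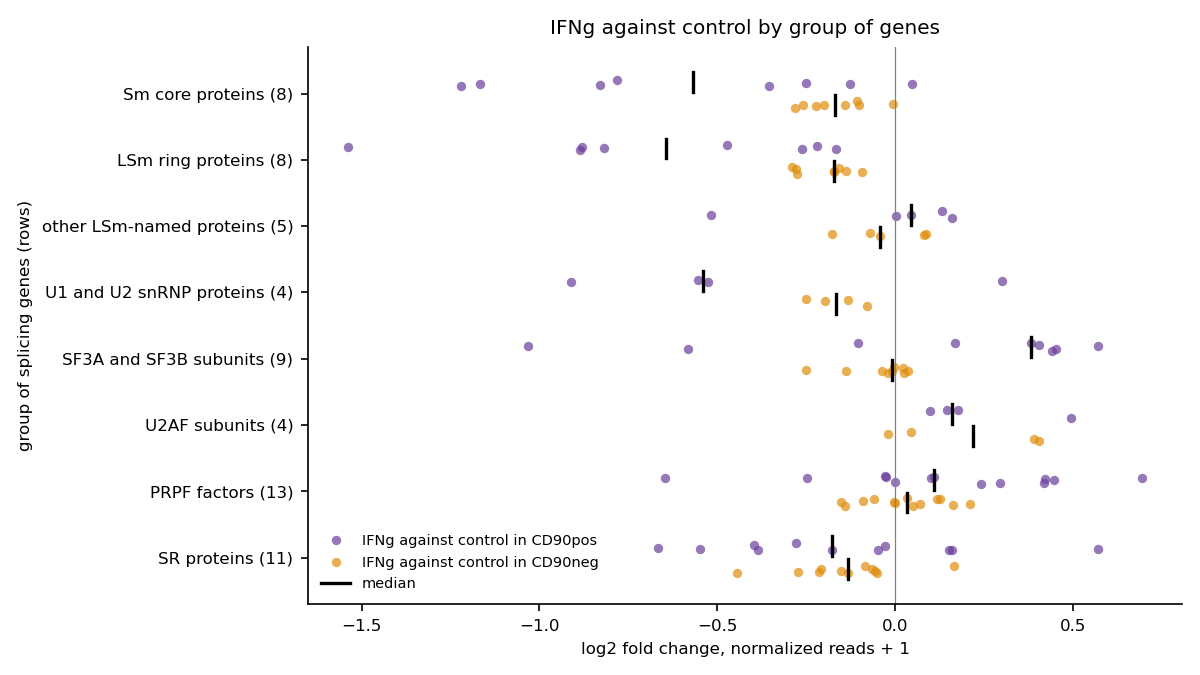
Log2 fold change of IFNg against control (horizontal axis) for 62 rows, grouped by role with the number of rows in parentheses and without the pseudogene Snrpert; purple points are CD90pos cells, orange points CD90neg cells and bars medians. In CD90pos cells the medians are -0.57 for the Sm core, -0.65 for the LSm rings and 0.38 for SF3A and SF3B, and in CD90neg cells they are -0.17, -0.17 and -0.01.

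In CD90neg cells IFNg gave no call among the 63 rows. Limma called 0 in both fits and 0 had an unadjusted p under 0.05, and edgeR and DESeq2 on the recovered reads also called 0. Of all genes, limma called 0.633% higher and 0.00771% lower without the block, and 3.48% and 0.663% with it. The median log2 fold change was -0.16 over the Snrp and Lsm rows (-0.03 within letter A and -0.28 within letter B), -0.02 over the other factors and -0.02 over all genes. Of the 26 Snrp and Lsm rows, 24 had negative values, which ranged down to -0.29, against 6938 of 12962 genes tested. These rows were measured in the same libraries and are not independent replicates. Snrpe itself was at 2112 and 2681 in control and 2294 and 2454 in IFNg, so its groups overlapped, with a log2 fold change of -0.00.

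Without IFNg, several small-subunit genes had higher levels in CD90pos than in CD90neg cells. Limma called this difference only with the letters blocked, and not after the length and GC correction described below. This comparison shares the CD90pos control libraries with the IFNg comparison above and is not independent of it. Limma without the block called 0 of 63 rows, with 21 at an unadjusted p under 0.05, and called 0% of all genes in either direction. Without the block edgeR called 0 rows and 0 of all genes, and DESeq2 called 13 rows and 987 of all genes. With the block DESeq2 called 14 rows higher and 7 lower, and 2531 of all genes. Limma with the block called 10 rows higher and 2 lower in CD90pos cells, against 6.80% and 4.40% of all genes. edgeR with the block also called 10 and 2, and 1375 of all genes. The 10 were Lsm5, Lsm10, Snrpb2, Snrpd1, Snrpd2, Snrpe, Snrpg, Sf3b6, Prpf38a and Srsf3, and the 2 were Sf3a2 and Sf3b2.

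In that comparison Lsm5 had a log2 difference of 1.26 (CD90pos minus CD90neg, blocked adjusted p = 0.0355), Snrpe 0.98 (0.0288), Snrpg 0.94 (0.0387) and Sf3b6 0.90 (0.0288). Sf3a2 and Sf3b2 had -0.64 (0.0288) and -0.51 (0.0421). In the unblocked fit their adjusted p lay between 0.173 and 0.234. The median was 0.32 over the Snrp and Lsm rows (0.21 within letter A and 0.40 within letter B), -0.19 over the other factors and -0.01 over all genes. The blocked calls were lost without any 1 of the 6 libraries other than CD90pos control A and B. Without CD90pos control A or B, the median of the Snrp and Lsm rows minus that of the other factors was 0.596 or 0.306. Those fits rest on 1 CD90pos control library. Their spread, pooled over the groups, leaves out the group in which the letters of these rows differed most.

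With IFNg, CD90pos and CD90neg cells gave no call in these genes. Limma called 0 of 63 rows in both fits, as did edgeR and DESeq2, and 0 without and 1 with the block had an unadjusted p under 0.05; of all genes limma called 0% in each direction. The medians were 0.01 over the Snrp and Lsm rows and -0.04 over the other factors. The row with the unadjusted p under 0.05 was Srsf12, an SR protein gene of low level, at 63.2 and 59.3 normalized reads in CD90pos IFNg and 30.1 and 39.2 in CD90neg IFNg.

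The difference of the IFNg change between the populations was tested as an interaction, CD90pos minus CD90neg. Limma called 0 of 63 rows in both fits and 0% of all genes, with 10 rows at an unadjusted p under 0.05 without and 16 with the block. edgeR called 0 in both fits. DESeq2 on the recovered reads called 4 without the block (Snrpe, Sf3b6, Prpf38a and Snrpd1), all negative, and 171 of all genes. With the block it called 6 negative, adding Lsm5 and Snrpb2, and 1 positive, Sf3a2, and 583 of all genes. Snrpe had an interaction of -1.16 (SE 0.22, adjusted p = 0.783, and 0.179 with the block), with -1.35 within letter A and -0.98 within letter B. The medians were -0.30 over the Snrp and Lsm rows and 0.13 over the other factors, and this test uses the CD90pos control libraries as well.

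Fold changes ran with coding length, within the splicing genes and across all genes. Over 62 rows with a coding length, Spearman's rho between coding length and the log2 fold change of IFNg in CD90pos cells was 0.701, against 0.403 over 12305 genes tested. In CD90neg cells it was 0.534 and 0.094. For CD90pos against CD90neg control cells it was -0.645 and -0.431. With the length of the longest transcript it was 0.347 over the 63 rows and 0.279 over all genes in the IFNg comparison of CD90pos cells, and with GC content 0.519 and 0.305. These values describe genes in shared libraries, and genes are not independent replicates.

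All genes with a transcript under 1000 nt changed with IFNg in CD90pos cells by a median of -0.59 on the log2 scale (640 genes), against -0.67 for the 8 splicing rows of that length, and all genes over 4000 nt had 0.16 (4935 genes), against 0.11 for 14 splicing rows. Between 1000 and 2000 nt the medians were -0.22 over 2096 genes and -0.10 over 12 splicing rows. After the trends on transcript length and GC content across all genes were removed from each library, the blocked fit called 9 of the 63 rows lower and 0 higher with IFNg in CD90pos cells, against 9.85% lower and 6.90% higher of the 12947 genes in that fit. The 9 were Lsm1, Lsm3, Lsm7, Snrpd2, Snrpe, Snrpg, Sf3b5, Sf3b6 and Srsf3. In that fit Lsm1 had a log2 fold change of -0.88 (adjusted p = 0.0161) and Snrpg -0.74 (0.0393), while Lsm5 had -0.34 (0.246) and Snrpd1 -0.14 (0.323). For CD90pos against CD90neg control cells the corrected fit called 0 of the 63 rows, with 24 at an unadjusted p under 0.05, against 0.0154% higher and 0.0232% lower of all genes. The correction used the length of the longest transcript and not the coding length, so a trend on coding length can remain in the corrected values. The part of RNA length or quality in these differences was not tested beyond this correction.

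**Figure D4:**
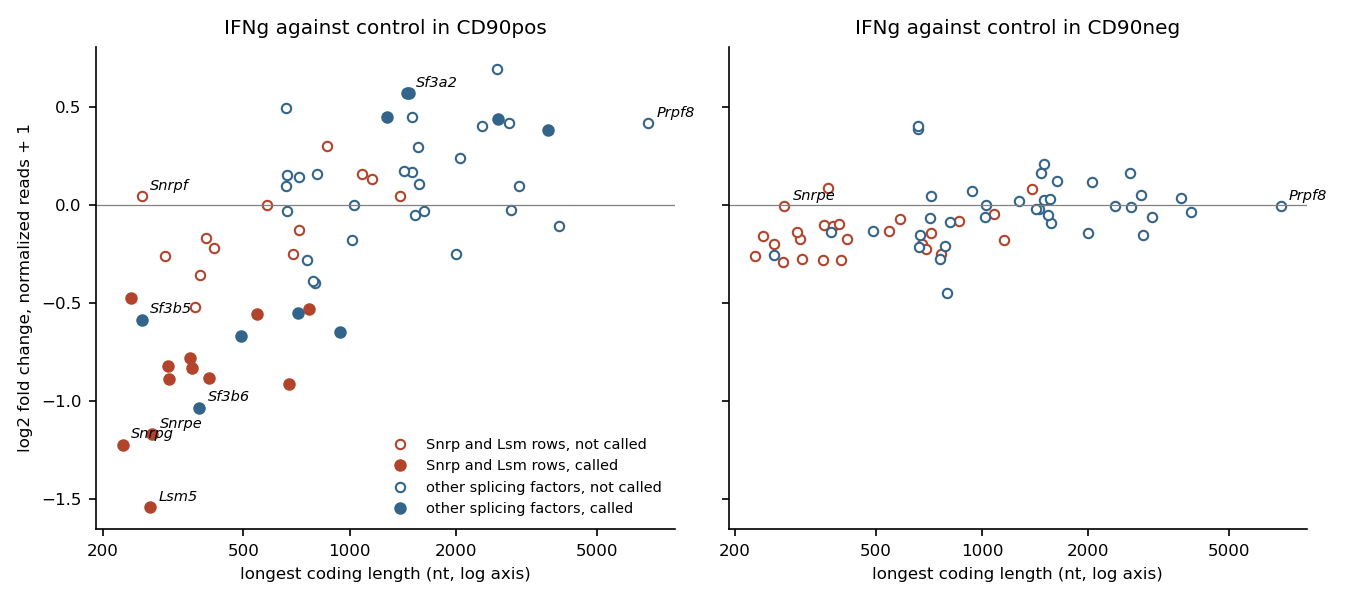
Log2 fold change of IFNg against control (vertical axis) against the longest coding length in nt (horizontal log axis) for 62 rows, in CD90pos cells (left) and CD90neg cells (right); filled points had an adjusted p under 0.05 in the blocked limma fit. In CD90pos cells Lsm5, Snrpg, Snrpe and Sf3b6 lie lowest at short coding lengths, with Snrpf near 0, and no point is filled in CD90neg cells.

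The letters differed within every group. In the blocked fit, 4 of 63 rows were called higher in letter B (Snrpn, Lsm11, Srsf2 and Snrpa1) and 4 lower (Srsf11, Sf3b4, Lsm14b and Srsf6), against 18.9% higher and 17.1% lower of all genes. Marker levels also differed between the letters. The leukocyte markers summed to between 935 and 2051 normalized reads in letter A and between 178 and 225 in letter B, and the epithelial genes to between 210124 and 471250 and between 650349 and 833969. The fibroblast markers summed to between 366 and 714 in letter A and between 1055 and 2251 in letter B, and the endothelial markers, whose ranges overlapped, to between 2529 and 4469 and between 1273 and 3297. CD90pos control A had the highest leukocyte and the lowest epithelial sum of the 8 libraries, and the part of these markers in the splicing gene differences was not tested. Snrpn was at 426, 348, 429 and 336 normalized reads in the letter A libraries of CD90pos control, CD90pos IFNg, CD90neg control and CD90neg IFNg, and at 642, 661, 696 and 732 in letter B. No letter B library overlapped letter A, and the log2 difference was 0.83 (adjusted p = 0.00319). The exons of Snrpn overlap another listed gene on the same strand, and it was 80.5% identical to Snrpb over 405 aligned bases, so its count is uncertain where reads were shared.

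Sf3b4, which encodes an RNA-binding subunit of SF3B, was at 2099, 3083, 3020 and 3209 normalized reads in letter A in that order of groups and at 1689, 2153, 2090 and 2034 in letter B. It was lower in letter B in all 4 groups, by a log2 difference of -0.50 (adjusted p = 0.00489). Within the groups the letter difference ran from 0.59 to 1.12 for Snrpn and from -0.66 to -0.31 for Sf3b4. Lsm11 had 0.49 (0.0279), Srsf11 -0.55 (0.0409) and Lsm14b -0.37 (0.0222). Most of the 8 letter calls were lost without any 1 of the 6 libraries other than CD90pos control A and B. Calls over all genes were not counted in those fits.

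Values of the remaining genes called between letters follow in the same order of groups. Lsm11 was at 309, 390, 386 and 417 normalized reads in letter A and 538, 532, 550 and 479 in letter B. Srsf2, which encodes the SR protein SC35, was at 8408, 8121, 9230 and 9165 in letter A and 10296, 10250, 12815 and 9592 in letter B. Snrpa1 was at 2697, 1943, 2318 and 2008 in letter A and 3518, 2352, 2709 and 2212 in letter B. All 3 were higher in letter B in each of the 4 groups, although the ranges of the letters overlapped for Snrpa1. Lsm14b was at 2300, 2749, 3233 and 3125 in letter A and 2069, 2082, 2575 and 2084 in letter B. Srsf6 was at 12525, 9974, 11155 and 11731 in letter A and 8932, 8779, 10293 and 9042 in letter B. Both were lower in letter B in each group, and the ranges of the letters overlapped.

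The fitted difference between letters was small in several genes in which its sign changed from group to group. Lsm4, shared by both LSm rings, was at 1916, 2092, 2275 and 2145 normalized reads in letter A and 2702, 1824, 2091 and 1748 in letter B. Lsm12 was at 1623, 1464, 1628 and 1466 in letter A and 1404, 1565, 1597 and 1612 in letter B. U2af2 was at 6818, 8160, 8846 and 8708 in letter A and 7497, 7999, 8215 and 8132 in letter B. These genes had the smallest fitted letter difference of their role group, as had Prpf38a, Snrpa, Snrpd1, Sf3b6 and Srsf4. Prpf38a was at 3441, 2005, 1839 and 2047 in letter A and 2960, 2077, 1951 and 1934 in letter B. Snrpa was at 2177, 3055, 3366 and 3147 in letter A and 2459, 2664, 2778 and 2661 in letter B. In contrast to these, Lsm7, with the largest letter difference of the ring genes, was at 1107, 546, 714 and 635 in letter A and 839, 498, 647 and 497 in letter B, lower in B in each group and not called (log2 difference -0.26, adjusted p = 0.0951). The U2af1l4 row ENSMUSG00000078765, of low level, was at 88.7, 55.3, 50.4 and 69.0 in letter A and 26.9, 50.1, 37.5 and 48.5 in letter B. It was also lower in B in each group, with a log2 difference of -0.69, the most negative of the 63 rows, and was not called (adjusted p = 0.13).

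Letters differed most in untreated CD90pos cells. The median size of the difference over the 63 rows was 0.30 in CD90pos control, 0.13 in CD90pos IFNg, 0.17 in CD90neg control and 0.18 in CD90neg IFNg on the log2 scale, and 33 rows had their largest difference in CD90pos control. These values were not computed over all genes, so they are not shown to be particular to the splicing genes. Prpf39, a U1-associated factor, was at 3213 and 1127 normalized reads in CD90pos control A and B, 1676 and 1530 in CD90pos IFNg, 1724 and 1836 in CD90neg control, and 1760 and 1480 in CD90neg IFNg. Letter A was the highest and letter B the lowest of the 8 libraries, and IFNg gave -0.94 within letter A and 0.44 within letter B. Srsf11, at 9240 and 3940 in CD90pos control and between 5224 and 7109 elsewhere, had the same order, and Snrpf had the opposite order.

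**Figure D5:**
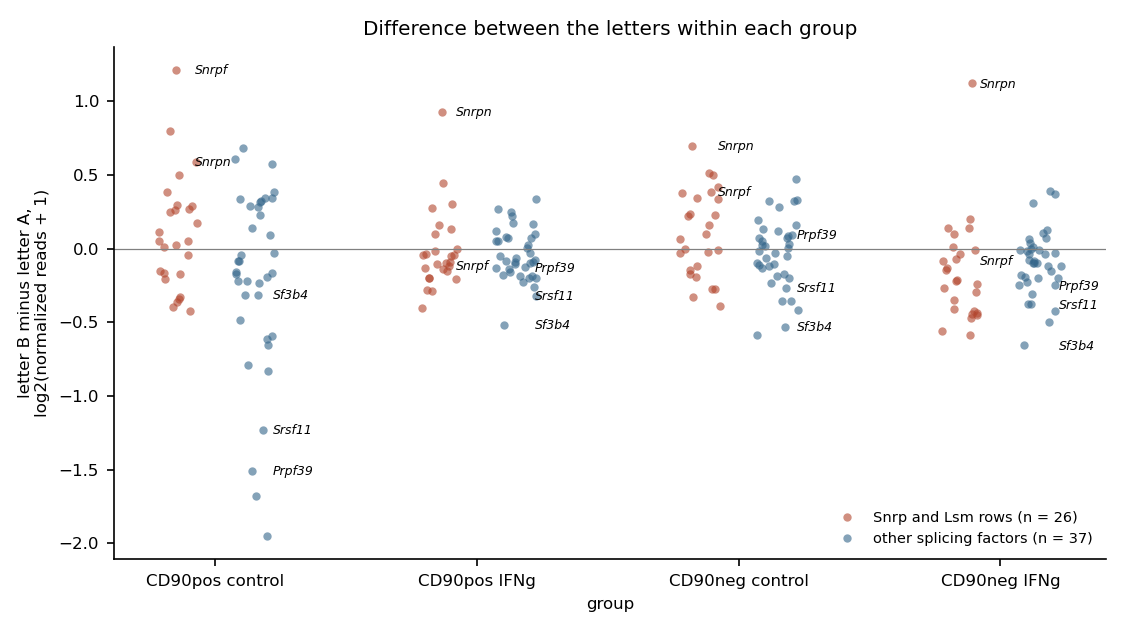
Letter B minus letter A in log2(normalized reads + 1) (vertical axis) for each of the 63 rows in the 4 groups; red points are Snrp and Lsm rows and blue points the other splicing factors. The spread is widest in CD90pos control, where Prpf39 and Srsf11 lie low and Snrpf high, and Snrpn lies high and Sf3b4 low in all groups.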

How the data were processed

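RNA-seq of 8 libraries was analysed from 1 table of normalized reads per gene, deposited by the authors (a signal: read counts divided by a size factor per library). Per the submitters' processing notes, the tools were STAR and HTSeq (no version given), with builds mm10 and GRCm38. Its filter on low genes is not stated in the labels or file. Whole reads, recovered from the smallest step of each library, came out for 100% of values within 0.001.

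Genes at 10 or more in at least 2 libraries were tested (12962 of 12964) with limma 3.58.1 in R 4.3.3 on log2(value + 1), with group means, a mean-variance trend, two-sided tests and Benjamini-Hochberg adjustment over all genes; fold changes are on that scale and understate those of low genes. The test foreseen for raw counts was replaced by this one, since the values were normalized. The spread of a gene was pooled over all groups, so it is not that of CD90pos control cells alone. Counting error of reads without molecular identifiers is not that of independent molecules.

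The blocked fit adds the letter as a covariate. Letters were taken to pair the libraries, since the differences between them correlated across genes by 0.779 to 0.920 over the 6 pairs of groups. edgeR 4.0.16 and DESeq2 1.42.0 were run on recovered reads. Lengths, GC content and coordinates came from GENCODE vM21 (GRCm38), with alignments by Biopython 1.88. Exons of 10 rows overlapped another listed gene, and whether strand was used in counting is not given. Fits were tested on simulated counts drawn without a letter effect or a length trend, so that test does not cover these features of the data.

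The genes and lists were chosen with earlier results of these data known. Rows given in every library were those called, up to 6 a direction without and 4 with the block, and those with extreme letter differences in a role; others shown were chosen after their values were seen.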

Additional observations from a re-analysis of the deposited data

How the results depend on the processing

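Snrpd1 in CD90pos against CD90neg control cells, called with the block at 0.72, was at -0.00 with the length and GC correction. Rows called with IFNg in CD90pos cells numbered 6 without and 23 with the replicate block, and 18 by DESeq2. Most of the unblocked calls were lost without any single library. The blocked count of 23 became 9 with the length and GC correction and ran from 1 (without CD90pos IFNg A) to 30 (without CD90pos control B), as added after seeing the data. In control cells the CD90pos against CD90neg count of 0 became 12 with the replicate block and 13 by DESeq2; the blocked 12 became 21 by DESeq2, 0 with the length and GC correction, and 0 to 17 without single libraries. The interaction count of 0 became 4 by DESeq2, and 7 by DESeq2 with the block. The letter count of 8 became 14 with the length and GC correction, 2 higher and 12 lower. In that fit 2185 of all 12947 genes were called higher and 3766 lower. That correction moved the median of all genes to -0.12 for the letters and -0.06 for IFNg in CD90pos cells. The letter calls also depended on single libraries.

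The median of the Snrp and Lsm rows minus that of the other factors was -0.605 with IFNg in CD90pos cells. It was -0.368 with the block and the length and GC correction and -0.273 when rows were divided by transcript length, and -0.676 to -0.455 without single libraries. For control cells it was 0.509, with 0.263 within letter A, 0.235 divided by transcript length, and 0.306 to 0.596 without single libraries. For IFNg cells it was 0.047, with 0.023 within letter A, -0.010 divided by transcript length, and -0.033 to 0.094 without single libraries. For the interaction it was -0.422, with -0.237 in the corrected fit, -0.516 divided by coding length (added after seeing the data), and -0.564 to -0.317 without single libraries. With the replicate block the limma counts called stayed 0 for IFNg in CD90neg cells, for CD90pos against CD90neg cells with IFNg, and for the interaction. Leaving out Snrpert and both U2af1l4 rows moved the difference of the medians for IFNg in CD90pos cells to -0.582. The cause of these shifts was not tested. The fewest reads of any row in a library was 16, so counting error is largest for such low rows.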

Other observations

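Splicing genes outside the named families, in lists chosen with earlier results of these data known gave calls in both directions with IFNg in CD90pos cells. Over the 6 lists together the blocked limma fit called 20 of 139 genes higher, or 14.4%, and 24 lower, or 17.3%, near the shares of 14.0% and 13.6% over all genes. Of 50 other snRNP and spliceosome factors the blocked limma fit called 10 higher and 9 lower, with a median log2 fold change of 0.07. Sart3, which recycles the U4/U6 particle, was the 1 called without the block (0.66, adjusted p = 0.0418). Dhx16, a helicase that acts before catalysis, had the highest value (0.74, blocked adjusted p = 0.00838) and Bud31, a small spliceosome protein, the lowest (-1.06, 0.00484). Of 10 minor spliceosome genes 0 were called higher and 2 lower with the block, with Snrnp25 lowest (-0.97, 0.00702).

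In the exon junction complex and mRNA export list of 21 genes, 2 were called higher and 5 lower with the block. Thoc7, a subunit of the THO export complex, had -1.22 (adjusted p = 0.0326), Magoh, a core protein of the exon junction complex, -0.95 (0.0365) and Sarnp, an export factor, -0.82 (0.0325), all 3 called without the block. Of 15 measured genes for snRNP assembly, 1 was called higher with the block (Gemin5, which recognises small nuclear RNAs, 0.68, blocked adjusted p = 0.00817) and 5 lower, with Gemin7, a small subunit of the same SMN complex, lowest (-0.78, 0.00527). The hnRNP list of 25 had 4 higher and 2 lower, with Hnrnpul1 highest (0.67, adjusted p = 0.0372) and Ptbp2 lowest (-0.76, blocked adjusted p = 0.0168). Of 18 SR-related genes, 3 were higher and 1 lower. In CD90neg cells 0 genes of these 6 lists were called by limma in either fit, with 1 of 139 at an unadjusted p under 0.05 without and 3 with the block.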
